A study of Mus musculus with 8 samples.

Results

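The genes described here encode the enzymes and transporters of glycolysis and the pentose phosphate pathway, the enzymes and transporters that handle pyruvate and lactate, and HIF-1α (Hif1a) with the proteins that control its stability. They were chosen by symbol, as 36 named genes, and read from the probe sets annotated to that symbol alone. Of the 36 genes, 33 had such a probe set, out of 18194 genes on the array, and 32 entered the tests. Gapdh was represented only by the array's control probe sets, which were kept out of the fit and are given as values. Gpi1, Eno1 and G6pdx were not analysed here. All 32 tested members passed the filter on low signals, which left 12091 genes in all. The dimmest was Aldoc, with signals of 46.0 to 90.2 beside array medians of 56.2 to 70.5.

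Resting T cells meet their energy needs mainly by oxidising fuels in mitochondria. After stimulation through the T cell receptor and CD28 they raise glucose uptake and aerobic glycolysis, in which most pyruvate is reduced to lactate and exported, and MYC and HIF-1α are known as transcriptional drivers of this switch. The pentose phosphate pathway branches off after the hexokinase step and supplies NADPH and ribose phosphate for nucleotide synthesis. HIF-1α is hydroxylated by the prolyl hydroxylases EGLN1 and EGLN3 when oxygen is present and is then marked for degradation by the VHL ubiquitin ligase, so its mRNA level alone does not give its activity.

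Gene expression was measured on 8 arrays of a 3-prime Affymetrix mouse design, with labelled cRNA made from total RNA of CD4 T cells. The cells were purified magnetically from spleens of mice aged 8 weeks, either mice deficient in IFN-γ receptor 1 (KO) or wild-type mice (WT), and all cultures were activated with anti-CD3 and anti-CD28 for 15 h. During the last 3 h they received db-cAMP, a cell-permeable cyclic AMP analogue that activates protein kinase A, or vehicle. The groups were KO with db-cAMP, KO with vehicle, WT with db-cAMP and WT with vehicle, with 2 arrays each. The arrays of a group are numbered 1 and 2 after the sample titles, which call them biological replicates. The labels do not say how the receptor gene was disrupted or whether both arrays of a group came from separate mice. The p-values therefore cover only the spread between these arrays, and whether that includes the spread between mice is not known.

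For all 4 KO arrays the free-text description field reads WT, and the titles, source names and genotype entries, which read KO, were followed. Ifngr1 gave signals of 1056 and 1272 in KO cells with db-cAMP and 439 and 378 in KO cells with vehicle, against 7319 and 8201 in WT cells with db-cAMP and 905 and 873 in WT cells with vehicle. Where its probe set lies relative to the disruption is not given, so it checks nothing about the genotype. Gbp2, a gene that IFN-γ induces, averaged 432 ± 68.2 in KO and 7532 ± 808 in WT cells with vehicle (SD, n = 2 each). Of 11 CD4 T cell markers 9 were measured, and their summed signals were 92433 to 94411 and 83368 to 86712 in the KO groups and 94792 to 97617 and 92368 to 94459.9 in the WT groups, with db-cAMP given before vehicle. These sums hide opposite changes of single markers. With db-cAMP 3 rose and 4 fell in WT cells (77.8%, beside 35% of all genes), and 2 rose and 0 fell in KO cells (22.2%, beside 8.38%). Between genotypes 4 were higher and 3 lower in KO cells under db-cAMP (77.8%, beside 29.2%). Under vehicle 1 was higher and 3 lower (44.4%, beside 10.8%). The 6 measured B cell markers summed to 404 to 449.8 in KO against 669.9 to 809 in WT cells with db-cAMP, and to 486 to 515 against 600.1 to 601 with vehicle. The summed signal of 2 CD8 T cell markers was also lower in KO cells, at 269.8 to 276 against 367 to 433 with db-cAMP and 290.4 to 335 against 499 to 516 with vehicle. The 7 measured erythroid and platelet markers summed to at most 368. The summed signal of 4 NK cell markers was higher with db-cAMP, at 1341 to 1455 against 762 to 841 in KO cells and 1684 to 1882 against 730.5 to 884 in WT cells. The 18S rRNA control probe sets also stood higher with db-cAMP, at 31397 to 38701 against 24553 to 26853 in KO cells and 36892 to 37627 against 25511 to 28574 in WT cells. The part of these signals in the results on the members was not tested.

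Promoter windows of 300 bases are shown for the 4 members that fell with db-cAMP with the smallest adjusted p in WT cells (Hk2, Pdk1, Rpia and Slc16a1), for Hif1a, which rose, and for Ldha, which has the most matches among the members. They are RefSeq sequences of build GRCm38.p6, from 250 bases before to 50 after the annotated gene start, read 5′ to 3′ on the gene's strand. They lie at chr6:82774405-82774704 and chr6:70792126-70792425 on the minus strand, and at chr2:71872974-71873273, chr3:104638414-104638713, chr12:73907617-73907916 and chr7:46845554-46845853 on the plus strand. Capitals mark every match, on either strand, to ACGTG, the core of the hypoxia response element that HIF binds, to CACGTG, the E-box that MYC binds, to TGACG, the core of the cAMP response element, and to TGACGTCA, its full palindrome. Each CACGTG also holds ACGTG on both strands, and TGACGTCA holds TGACG on both.
Hk2: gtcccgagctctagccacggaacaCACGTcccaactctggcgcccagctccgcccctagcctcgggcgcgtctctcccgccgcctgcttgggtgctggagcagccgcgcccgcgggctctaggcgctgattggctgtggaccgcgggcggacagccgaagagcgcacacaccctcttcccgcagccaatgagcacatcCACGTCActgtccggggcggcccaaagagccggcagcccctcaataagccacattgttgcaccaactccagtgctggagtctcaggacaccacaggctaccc
Pdk1: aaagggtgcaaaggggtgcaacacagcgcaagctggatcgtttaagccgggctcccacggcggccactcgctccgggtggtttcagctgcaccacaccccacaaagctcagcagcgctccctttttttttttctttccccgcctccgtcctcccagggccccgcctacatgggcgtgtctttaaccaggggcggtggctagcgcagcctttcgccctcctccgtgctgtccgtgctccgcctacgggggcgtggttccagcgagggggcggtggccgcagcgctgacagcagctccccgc
Rpia: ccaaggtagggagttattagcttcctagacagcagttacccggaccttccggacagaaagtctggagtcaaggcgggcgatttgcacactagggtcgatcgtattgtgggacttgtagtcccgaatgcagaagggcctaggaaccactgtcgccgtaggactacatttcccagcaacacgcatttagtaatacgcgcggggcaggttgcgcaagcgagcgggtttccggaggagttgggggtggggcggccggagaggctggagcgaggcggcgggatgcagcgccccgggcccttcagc
Slc16a1: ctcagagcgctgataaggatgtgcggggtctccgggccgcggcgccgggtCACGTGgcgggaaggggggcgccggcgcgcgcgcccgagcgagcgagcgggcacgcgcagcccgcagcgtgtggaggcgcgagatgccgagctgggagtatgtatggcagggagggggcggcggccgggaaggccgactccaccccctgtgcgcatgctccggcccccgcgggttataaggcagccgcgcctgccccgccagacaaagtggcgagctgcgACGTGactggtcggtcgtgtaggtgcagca
Hif1a: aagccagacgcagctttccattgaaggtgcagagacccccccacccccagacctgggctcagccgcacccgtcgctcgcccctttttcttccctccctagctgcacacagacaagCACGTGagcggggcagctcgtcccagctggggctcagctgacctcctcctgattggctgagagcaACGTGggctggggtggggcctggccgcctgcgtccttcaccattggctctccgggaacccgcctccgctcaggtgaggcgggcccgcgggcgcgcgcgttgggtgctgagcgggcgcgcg
Ldha: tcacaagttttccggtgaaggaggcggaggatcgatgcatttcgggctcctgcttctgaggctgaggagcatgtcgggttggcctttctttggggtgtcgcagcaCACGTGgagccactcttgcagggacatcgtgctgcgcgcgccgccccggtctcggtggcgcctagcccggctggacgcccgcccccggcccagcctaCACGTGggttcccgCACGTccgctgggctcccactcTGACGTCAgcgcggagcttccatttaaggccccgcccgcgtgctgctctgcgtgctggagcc

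In these windows Hk2 had 2 matches to ACGTG, 226 and 52 bases before the start, and the second shares bases with its single match to TGACG. Slc16a1 and Hif1a each had 1 E-box, and Ldha had 2 E-boxes and, 12 bases before the start, the full cAMP response element. Pdk1 and Rpia had 0 matches to any of the 4 motifs. Windows were given for 35 of the 36 members, all but Slc2a3. At least 1 window held ACGTG in 19 of the 35 (54.3%), against 21.8% of the 27025 genes with a window, and CACGTG in 5 (14.3%), against 8.09%. TGACG was found in 8 members (22.9%), against 23% of all genes, and TGACGTCA in 1 (2.86%), against 2.03%. A match is a description of letters in these windows, and no match says nothing of binding elsewhere.

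The comparison of db-cAMP with vehicle asks what a rise in cAMP does to genes of glucose metabolism in activated T cells. Doing so in both genotypes asks whether the response differs between KO and WT cells. On the 1 probe set used per gene, db-cAMP in both genotypes lowered Hk2, Pdk1, Rpia, Slc16a1, Slc2a3 and Bpgm and raised Hif1a and Pfkfb3. Ldha, Pkm, Tpi1 and Slc2a1 did not pass the test in either genotype. In KO cells 2 of the 32 tested members rose and 6 fell (25%), where 8.38% of all 12091 genes passed, 4.7% higher and 3.68% lower. In WT cells 6 rose and 8 fell (43.8%), where 35% of all genes passed, 16.4% higher and 18.6% lower. Dim genes were seldom called. Of the 3042 genes with a mean signal under 100, 4 passed in KO and 145 in WT cells, and 1 member lies there. Of the 2336 genes between 1000 and 3000, with 8 members, 436 and 1353 passed. A share over all genes is thus not the share among genes of like signal, here and below. The median log2 change of the members was -0.06 in KO and 0.04 in WT cells, beside -0.00 and 0.01 over all genes. Among the 8 tested genes from hexokinase to aldolase, the KO comparison had 1 higher and 1 lower, and the WT comparison had 2 higher and 1 lower. Among the 7 pyruvate and lactate genes the KO comparison had 0 higher and 2 lower, and the WT comparison 2 higher and 2 lower. Of 6 pentose phosphate genes, Bpgm included, 2 were lower in the KO and 3 in the WT comparison. A gene counts as changed when its adjusted p is under 0.05. Where 1 array was left out or another setting was used, the adjusted p of that fit stands in parentheses. All adjusted p-values of genes are from limma fitted over all genes and 8 arrays, with Benjamini-Hochberg adjustment, and changes are differences of log2(signal + 5.48) ± the standard error of the fit. In a bulk sample, fewer cells that make an mRNA and less of it per cell cannot be told apart.

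Glucose enters T cells through the facilitative transporters GLUT1 and GLUT3. Slc2a3, which encodes GLUT3, gave signals of 457 and 407 in KO cells with db-cAMP against 656 and 709.9 in KO cells with vehicle, and of 438 and 457 in WT cells with db-cAMP against 671 and 660.0 in WT cells with vehicle. The db-cAMP arrays lay below the vehicle arrays in both genotypes, by a log2 change of -0.66 ± 0.13 in KO (adjusted p = 0.00718) and -0.57 ± 0.13 in WT cells (adjusted p = 0.00416). Slc2a1, which encodes GLUT1, gave 2249.8 and 2215 in KO cells with db-cAMP against 2357 and 2275 in KO cells with vehicle. It gave 2615 and 3025 in WT cells with db-cAMP against 3305 and 3195 in WT cells with vehicle. The db-cAMP arrays lay lowest within each genotype, but its changes of -0.05 ± 0.09 (adjusted p = 0.819) in KO and -0.21 ± 0.09 (adjusted p = 0.082) in WT cells did not pass. Without WT db-cAMP array 2, the WT change passed (0.0264). The KO change of Slc2a3 was not called without KO db-cAMP array 2 (0.0926) or KO vehicle array 2 (0.0821). With the mean of its 4 probe sets, of which 2 lay below the array medians, the change was not called in either genotype and was positive in WT cells, at 0.27.

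Hexokinase 2 traps glucose in the cell as glucose-6-phosphate. Hk2 gave signals of 902 and 1062 in KO cells with db-cAMP against 1593 and 1395 in KO cells with vehicle, and of 413 and 333 in WT cells with db-cAMP against 1579.6 and 1564 in WT cells with vehicle. All db-cAMP arrays lay below all vehicle arrays, and the WT arrays with db-cAMP lay lowest of all. Hk2 fell, at -0.60 ± 0.13 on the log2 scale in KO cells (adjusted p = 0.0108) and -2.07 ± 0.13 in WT cells (adjusted p = 4.43e-08), a 1.52-fold and a 4.19-fold lower level. The KO change was not called without KO db-cAMP array 1 (0.135) or KO vehicle array 1 (0.0974). Hk1, the constitutive isoform in many tissues, changed by 0.03 ± 0.12 in KO and -0.14 ± 0.12 in WT cells, and neither passed (adjusted p = 0.944 and 0.398).

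Phosphofructokinase commits glucose carbon to glycolysis, and PFKFB3 makes its activator fructose-2,6-bisphosphate. Pfkfb3 gave 933 and 995 in KO cells with db-cAMP against 721 and 556 in KO cells with vehicle, and 959 and 869 in WT cells with db-cAMP against 683 and 592 in WT cells with vehicle. Its groups did not overlap in either genotype, and it rose by 0.60 ± 0.14 in KO (adjusted p = 0.018) and 0.52 ± 0.14 in WT cells (adjusted p = 0.0108). A second, dimmer Pfkfb3 probe set did not rise in KO cells. It gave 87.0 and 74.4 with db-cAMP against 92.5 and 79.9 with vehicle there, a change of -0.09. In WT cells it gave 102 and 144 against 73.9 and 44.3, a change of 1.01. Of the enzyme's own subunits, Pfkp gave 3154 and 3229 in KO cells with db-cAMP against 3821 and 3558 in KO cells with vehicle, and 4671 and 5096 in WT cells with db-cAMP against 4168 and 4312 in WT cells with vehicle. It stood lower with db-cAMP in KO cells and higher in WT cells, at -0.21 ± 0.08 (adjusted p = 0.131) and 0.20 ± 0.08 (adjusted p = 0.0585), and neither passed. Pfkl and Pfkm, the liver- and muscle-type subunits, had changes between -0.09 and 0.20 that did not pass. The aldolase gene Aldoa changed by 0.01 ± 0.07 in KO cells (adjusted p = 0.948) and 0.22 ± 0.07 in WT cells (adjusted p = 0.0294), and the dim Aldoc, with standard errors of 0.51, did not pass.

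The changes of this step that passed in single genotypes or by a small margin rested on few arrays. Pfkfb3 was not called in KO cells without KO db-cAMP array 1 (0.0807) or 2 (0.146) or KO vehicle array 2 (0.196), nor in WT cells without WT db-cAMP array 1 (0.0705) or WT vehicle array 2 (0.0862). Aldoa was not called in WT cells without KO db-cAMP array 1 (0.0516) or 2 (0.0519), WT db-cAMP array 2 (0.212) or WT vehicle array 1 (0.109) or 2 (0.0816). The WT difference of Pfkp passed without WT db-cAMP array 1 (0.0443) and after quantile normalization (0.0479).

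The enzymes of lower glycolysis, from triosephosphate isomerase to pyruvate kinase, were mostly not called with db-cAMP. In KO cells 0 of 5 tested members passed in limma and 1 had an unadjusted p under 0.05, where 8.38% of all genes passed. The 5 changes lay between -0.17 and 0.07. In WT cells Pgam1, which encodes phosphoglycerate mutase, fell, at -0.40 ± 0.06 (adjusted p = 0.000265), to 9081 and 9374 with db-cAMP against 11984 and 12335 with vehicle. Pgk1, the phosphoglycerate kinase gene, rose by 0.21 ± 0.07 (adjusted p = 0.0323), and Tpi1, Eno3 and Pkm did not pass. The rise of Pgk1, like that of Aldoa, was not called after quantile normalization (adjusted p = 0.946 and 0.705). Pgk1 was also not called without KO db-cAMP array 1 (0.0558) or 2 (0.0562), WT db-cAMP array 1 (0.0958) or 2 (0.072) or WT vehicle array 1 (0.105) or 2 (0.098). In WT cells the 187 genes with a mean signal of 20000 or more, which include both, had a median change of 0.18.

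Gapdh, which encodes the glyceraldehyde-3-phosphate dehydrogenase step, was read on 3 control probe sets placed along its mRNA. The 3-prime probe set gave 30119.8 and 29471 in KO cells with db-cAMP against 27398 and 29216 with vehicle, and 48432 and 53256 in WT cells with db-cAMP against 42278 and 43696 with vehicle. The groups did not overlap in either genotype on this probe set. In a fit that kept control probe sets, added after seeing the data, the 5-prime probe set changed by -0.01 ± 0.07 in KO (adjusted p = 0.979) and rose by 0.27 ± 0.07 in WT cells (adjusted p = 0.00861).

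Pyruvate is either reduced to lactate and exported or oxidised through pyruvate dehydrogenase, which the PDK kinases switch off. Pdk1 gave signals of 1721 and 1646 in KO cells with db-cAMP against 2251 and 2161 in KO cells with vehicle, and of 891 and 805 in WT cells with db-cAMP against 2100.3 and 2109 in WT cells with vehicle. The groups did not overlap in either genotype. Pdk1 fell, at -0.39 ± 0.09 in KO (adjusted p = 0.0173) and -1.31 ± 0.09 in WT cells (adjusted p = 1.11e-07). Its relative Pdk3 gave 1186 and 1153 in KO cells with db-cAMP against 944 and 1169 in KO cells with vehicle, where the groups overlapped, and 1672 and 1556 in WT cells with db-cAMP against 1043 and 877 in WT cells with vehicle, where they did not. Pdk3 rose in WT cells by 0.75 ± 0.12 (adjusted p = 0.000283) and stood at 0.15 ± 0.12 in KO cells (adjusted p = 0.559). Pdha1, the catalytic subunit gene of pyruvate dehydrogenase itself, stood at -0.14 and -0.04 and did not pass in either genotype (adjusted p = 0.378 and 0.783). With the mean of its 2 probe sets it passed in KO cells (adjusted p = 0.0355).

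Slc16a1 encodes MCT1, a proton-linked carrier of lactate and pyruvate. It gave 7133 and 7183 in KO cells with db-cAMP against 8147 and 9320.4 in KO cells with vehicle, and 6047 and 6239 in WT cells with db-cAMP against 8941 and 9996 in WT cells with vehicle. The db-cAMP arrays lay below the vehicle arrays, and Slc16a1 fell, at -0.28 ± 0.08 in KO (adjusted p = 0.0488) and -0.62 ± 0.08 in WT cells (adjusted p = 4.16e-05). Slc16a3, which encodes the lactate exporter MCT4, gave 92 and 43.4 in KO cells with db-cAMP against 27.4 and 80.9 in KO cells with vehicle, and 176 and 418 in WT cells with db-cAMP against 94.5 and 71.2 in WT cells with vehicle. It rose in WT cells by 1.66 ± 0.56 (adjusted p = 0.0328), with a wide spread between the db-cAMP arrays, and the KO groups overlapped (0.37, adjusted p = 0.796).

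Neither subunit gene of lactate dehydrogenase, which interconverts pyruvate and lactate, passed the test. Ldha gave 25575 and 26117 in KO cells with db-cAMP against 24184 and 26088 in KO cells with vehicle, and 34382 and 36054 in WT cells with db-cAMP against 31756 and 35834 in WT cells with vehicle. Both pairs overlapped, and the changes were 0.04 ± 0.07 (adjusted p = 0.841) and 0.06 ± 0.07 (adjusted p = 0.581). Ldhb stood at 0.20 in KO and 0.10 in WT cells. Several calls in this step rested on single arrays. In KO cells Pdk1 was not called without KO db-cAMP array 1 (0.08) or 2 (0.148) or KO vehicle array 1 (0.0897) or 2 (0.0713). Slc16a1 was not called in KO cells without KO db-cAMP array 1 (0.224) or 2 (0.205), KO vehicle array 2 (0.361) or WT db-cAMP array 1 (0.0537) or 2 (0.0533). Averaged over its 2 probe sets, of which the dimmer gave signals of 23.5 to 73.2, Slc16a1 was called neither in KO (0.345) nor in WT cells (0.124). In WT cells Slc16a3 was not called without WT db-cAMP array 2 (0.282) or WT vehicle array 1 (0.0661) or 2 (0.133).

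Hif1a rose with db-cAMP in both genotypes. Its signals were 16526 and 17453 in KO cells with db-cAMP against 10785 and 11084 in KO cells with vehicle, and 33135 and 38189 in WT cells with db-cAMP against 14436 and 14643 in WT cells with vehicle. The groups were far apart, with increases of 0.64 ± 0.08 in KO (adjusted p = 0.000138) and 1.29 ± 0.08 in WT cells (adjusted p = 2.3e-08), that is 1.55-fold and 2.45-fold. Of its 3 other probe sets, 2 moved the same way, by 0.74 and 0.53 in KO and by 0.98 and 1.32 in WT cells, and the third stayed at signals of at most 47.5. The mean over all 4 probe sets, the dim one included, no longer passed in KO cells (adjusted p = 0.0543), nor did the change without an intensity trend (0.0562). Of the members that limit HIF-1α protein, Egln1, Egln3 and Vhl did not pass. Egln1 stood at -0.19 ± 0.10 in KO and -0.26 ± 0.10 in WT cells, Egln3 at -0.53 ± 0.25 and 0.33 ± 0.25, and Vhl at -0.35 ± 0.15 and -0.40 ± 0.15. The other Egln1 probe set moved the other way, by 0.07 in KO and 0.30 in WT cells. Its WT signals were 726 and 839 with db-cAMP against 615 and 649 with vehicle. In WT cells Vhl passed without WT db-cAMP array 1 (adjusted p = 0.0341), and Egln1 passed without WT db-cAMP array 2 (0.0472).

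In the pentose phosphate pathway the oxidative enzymes make NADPH and the non-oxidative enzymes rearrange sugars to ribose-5-phosphate and back. Rpia, which encodes the isomerase that makes ribose-5-phosphate, gave 2927 and 3070.2 in KO cells with db-cAMP against 3687 and 4169 in KO cells with vehicle, and 2108 and 1909.8 in WT cells with db-cAMP against 3612 and 3444 in WT cells with vehicle. Its groups did not overlap, and it fell, at -0.39 ± 0.09 in KO (adjusted p = 0.0144) and -0.81 ± 0.09 in WT cells (adjusted p = 6.88e-06). Pgd, the oxidative phosphogluconate dehydrogenase, stood at -0.08 ± 0.12 in KO cells (adjusted p = 0.795) and fell, at -0.37 ± 0.12 in WT cells (adjusted p = 0.0243), to 5309.7 and 4244 with db-cAMP against 6998 and 5409 with vehicle. Pgls, Taldo1 and Tkt, the lactonase, transaldolase and transketolase genes, had changes between -0.21 and 0.11 and did not pass. Without KO db-cAMP array 2, Tkt passed in KO cells (adjusted p = 0.00389). The arrays of that group stood at 20294 and 33539.6.

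Bpgm encodes bisphosphoglycerate mutase, which diverts a glycolytic intermediate to 2,3-bisphosphoglycerate and is best known from red cells. It gave 630.2 and 735 in KO cells with db-cAMP against 899.8 and 1096 in KO cells with vehicle, and 617 and 639 in WT cells with db-cAMP against 1085 and 881 in WT cells with vehicle. The db-cAMP arrays lay below the vehicle arrays in both genotypes, at -0.54 ± 0.14 in KO (adjusted p = 0.0314) and -0.63 ± 0.14 in WT cells (adjusted p = 0.00299). The summed signals of the 7 erythroid and platelet markers were 274 to 328 against 258 to 367 in KO cells, which overlapped, and 347 to 368 against 316 to 334 in WT cells. In KO cells Bpgm was not called without KO db-cAMP array 1 (0.251) or 2 (0.0643) or KO vehicle array 2 (0.278), and Rpia was not called without KO db-cAMP array 1 (0.129) or 2 (0.0656) or KO vehicle array 2 (0.159). In WT cells Pgd was not called without WT db-cAMP array 2 (0.241) or WT vehicle array 1 (0.277).

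**Figure D1:**
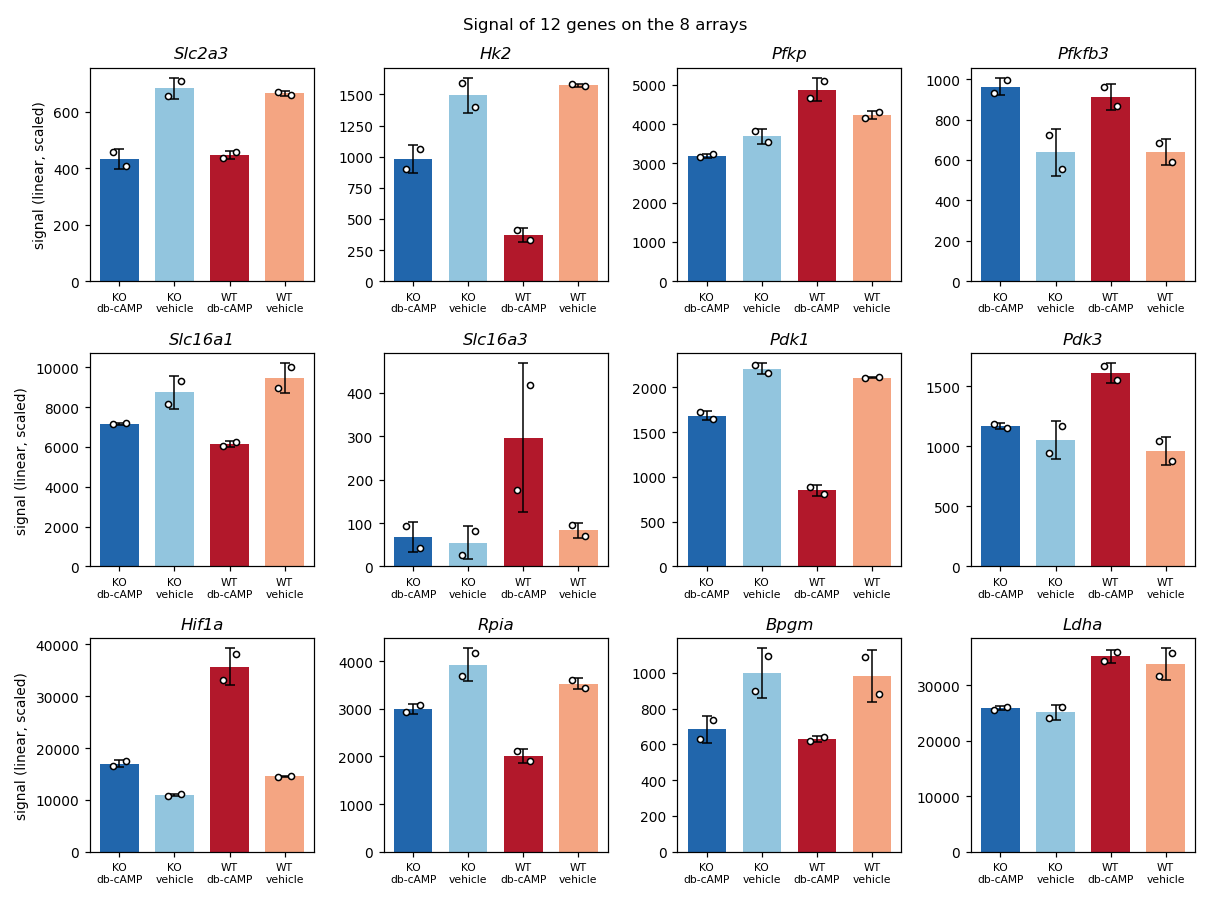
Linear signal of 12 genes, with 1 panel per gene and the groups KO with db-cAMP, KO with vehicle, WT with db-cAMP and WT with vehicle along the x axis. Bars are means of 2 arrays, error bars are SD and circles are the arrays. Hk2 and Pdk1 are lowest in WT cells with db-cAMP, Hif1a is highest there, and Ldha lies lower on every KO array than on any WT array.

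**Figure D2:**
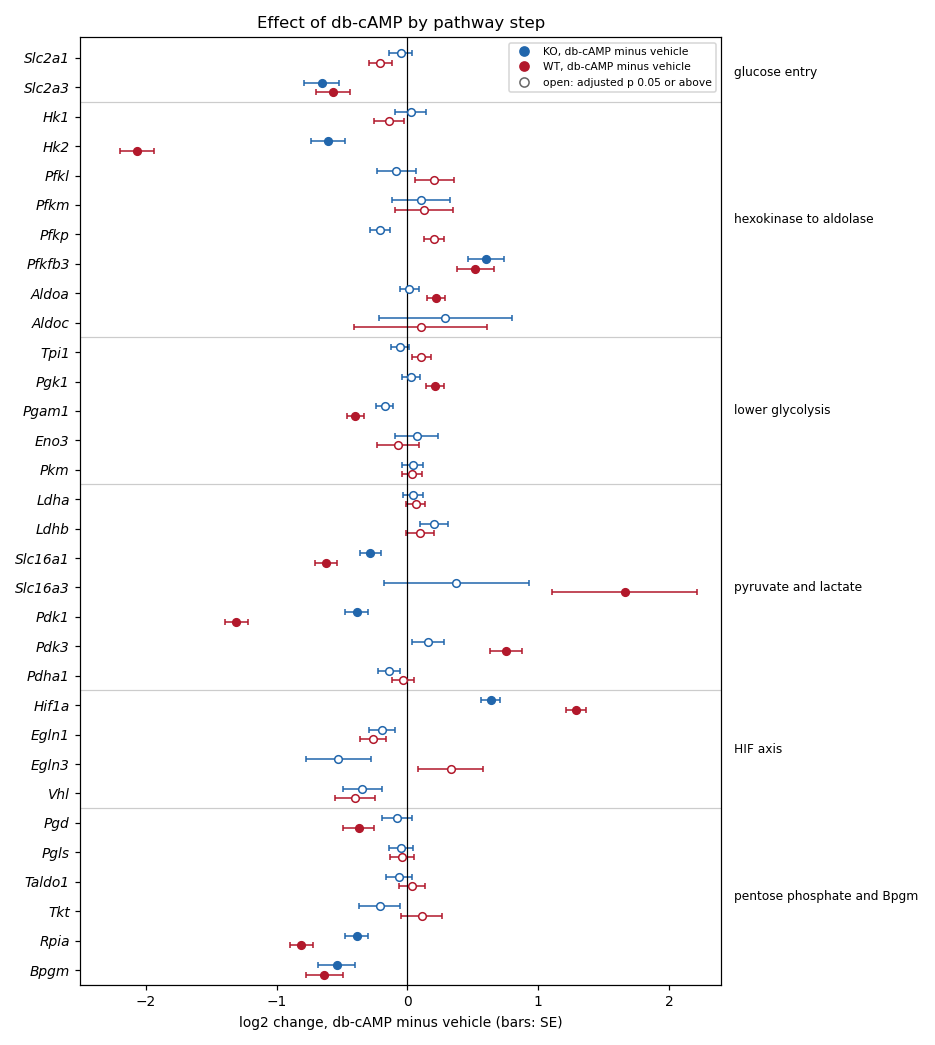
Log2 change with db-cAMP for the 32 tested members, grouped by pathway step, in KO cells (blue, upper) and WT cells (red, lower). Bars are standard errors and filled symbols passed an adjusted p of 0.05. The WT changes of Hk2, Pdk1 and Hif1a lie farther from 0 than the KO changes.

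Over the 32 members the counts changed with single arrays in KO cells more than in WT cells. In KO cells 8 members passed, but 2 without KO db-cAMP array 1, 3 without KO db-cAMP array 2 and 2 without KO vehicle array 2. In WT cells 14 passed, and 10 to 14 when 1 array was left out. With arrays scaled to an equal 75th percentile, the WT split became 4 higher and 10 lower, against 6 and 8. Over all genes the KO split became 447 higher and 585 lower under that scaling, against 568 and 445.

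The interaction, the KO effect of db-cAMP minus the WT effect, tests whether the response differed between KO and WT arrays. These arrays also differed in control and bright-gene signals, given below, and the part of those differences in the interaction was not tested. Of the 32 members 6 passed (18.8%), 3 with a positive and 3 with a negative difference. Of all genes 11.8% passed, 6.7% with a positive and 5.09% with a negative difference. By signal, 11 of the 3042 genes under 100 passed, and 571 of the 2336 genes between 1000 and 3000. The KO and WT changes of Hk2 differed by 1.46 ± 0.18 (adjusted p = 0.00023), those of Pdk1 by 0.92 ± 0.13 (adjusted p = 0.0005) and those of Rpia by 0.43 ± 0.12 (adjusted p = 0.0402), so that each fell less in KO cells. Hif1a rose less in KO cells, by -0.66 ± 0.11 (adjusted p = 0.00139). Pdk3 differed by -0.60 ± 0.17 (adjusted p = 0.0405) and Pfkp by -0.41 ± 0.11 (adjusted p = 0.0268). The falls of Slc2a3 and Bpgm and the rise of Pfkfb3 had interactions of -0.09 ± 0.19, 0.09 ± 0.20 and 0.08 ± 0.20, which did not pass (adjusted p = 0.844, 0.843 and 0.864). Nor did those of Pgam1, Aldoa, Pgk1, Pgd and Slc16a3, which were called with db-cAMP in WT cells alone (adjusted p = 0.148, 0.2435, 0.294, 0.316 and 0.36). A p above the threshold does not show that the responses of these genes were equal in both genotypes. For Pfkfb3 the interaction ranged from -0.51 to 0.27 over 18 alternative settings.

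Hk2 and Pdk1 kept their interaction in each fit that left out 1 array, and so did Hif1a. With the mean of their probe sets Pdk1 was not called (adjusted p = 0.315), and Hif1a stood at 0.065 (adjusted p = 0.937). Each mean included a dim probe set, with signals of at most 38.4 for Pdk1 and 47.5 for Hif1a. The dim probe set changed by 0.43 in KO and 0.10 in WT cells for Pdk1, and by 1.23 and -0.72 for Hif1a. Without an intensity trend Hif1a was not called (0.0816). The second brightest probe set of Pdk1 changed by -0.67 in KO and -1.25 in WT cells, and that of Hif1a by 0.74 and 0.98. The other interactions rested on single arrays. Rpia was not called without KO db-cAMP array 1 (0.0861) or 2 (0.148), KO vehicle array 1 (0.14), WT db-cAMP array 2 (0.126) or WT vehicle array 1 (0.118) or 2 (0.0642). Pdk3 was not called without KO db-cAMP array 1 (0.101) or 2 (0.126), KO vehicle array 2 (0.166), WT db-cAMP array 1 (0.105) or 2 (0.0624) or WT vehicle array 2 (0.14). Pfkp was not called without KO db-cAMP array 1 (0.101) or 2 (0.0735), KO vehicle array 1 (0.088), WT db-cAMP array 2 (0.092) or WT vehicle array 1 (0.0812). With the replicate number as a block, Rpia stood at an adjusted p of 0.0525 and Pdk3 at 0.0505. Without KO db-cAMP array 2 Tkt passed (0.00462), and without KO vehicle array 2 Slc16a1 passed (0.0425). In all, 6 members passed, but 3 when KO db-cAMP array 1 or WT db-cAMP array 2 was left out.

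The comparison of KO with WT cells asks how cells deficient in IFN-γ receptor 1 differ from WT cells under each treatment. The 2 genotype comparisons use different arrays from each other but share them with the db-cAMP comparisons. Members that passed were mostly lower in KO cells, and they included 4 of the 5 tested genes of lower glycolysis under each treatment. Under db-cAMP 3 of 32 members were higher and 13 lower in KO cells (50%), where 29.2% of all genes passed, 15.9% higher and 13.3% lower. Under vehicle 0 were higher and 8 lower (25%), where 10.8% passed, 5.06% higher and 5.78% lower. These shares over all genes include the 3042 genes under a signal of 100, of which 96 and 21 passed under db-cAMP and vehicle. Of the 2336 genes between 1000 and 3000, 1147 and 389 passed. Members were not tested against genes of like signal. The median difference of the members was -0.21 under db-cAMP and -0.14 under vehicle, beside -0.00 and -0.01 over all genes. Of the CD8 T cell markers, whose sums were lower in KO cells, Cd8b1 passed, at -0.89 ± 0.21 under db-cAMP (adjusted p = 0.00514) and -0.92 ± 0.21 under vehicle (adjusted p = 0.0121), and Cd8a did not (0.03 and -0.22). Of 5 tested B cell markers Cd79b and Ms4a1 passed under db-cAMP, at -1.28 ± 0.40 (adjusted p = 0.0288) and -0.76 ± 0.25 (adjusted p = 0.0345), and 0 passed under vehicle, where Cd79b had adjusted p = 0.492 and Ms4a1 0.555. Their part in the genotype differences was not tested.

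Bright genes as a whole stood lower on the KO arrays. Among the 187 genes with a mean signal of 20000 or more, 80.7% were called lower in KO cells under db-cAMP and 67.9% under vehicle, with median differences of -0.47 and -0.36. Among the 256 genes between 10000 and 20000 the medians were -0.21 and -0.18, and among the 2336 genes between 1000 and 3000 they were 0.09 and 0.02. The members Aldoa, Pgk1, Ldha and Tkt belong to the brightest class, and Tpi1 and Hif1a to the next. Poly-A spike controls were also higher on the KO arrays, at 5362 to 6375 and 4563 to 5099.8 in the KO groups and 1998 to 2443 and 1612 to 1889 in the WT groups, with db-cAMP first. The ratio of 3-prime to 5-prime 18S rRNA signals was 0.548 to 0.623 and 0.513 to 0.522 against 0.410 to 0.441 and 0.353 to 0.386 in the same order. The part of these array-wide differences in the genotype results was not tested beyond quantile normalization, which gives all arrays 1 distribution and whose values follow.

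Tpi1, the triosephosphate isomerase gene, gave signals of 7085 and 6909 in KO cells with db-cAMP against 14326 and 13341 in WT cells with db-cAMP. With vehicle it gave 7007 and 7532 in KO cells against 12853 and 12822 in WT cells. The KO arrays lay far below the WT arrays, at -0.98 ± 0.07 under db-cAMP (adjusted p = 3.37e-07) and -0.82 ± 0.07 under vehicle (adjusted p = 6.13e-06). After quantile normalization Tpi1 was still lower, at -0.78 (adjusted p = 1.04e-06) and -0.72 (6.75e-06), and its 2 other probe sets gave -0.87 and -0.96 under db-cAMP and -0.89 and -0.85 under vehicle. The 3-prime control probe set of Gapdh lay lower on every KO array than on any WT array. In the fit that kept controls, its 5-prime probe set differed by -0.95 (adjusted p = 5.75e-07) and -0.67 (adjusted p = 4.86e-05).

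Every KO array also lay below every WT array for Ldha, by -0.45 ± 0.07 under db-cAMP (adjusted p = 0.000516) and -0.43 ± 0.07 under vehicle (adjusted p = 0.0026). Aldoa differed by -0.57 and -0.36, Pgk1 by -0.55 and -0.37, and Pkm, the pyruvate kinase gene, by -0.28 and -0.28, with db-cAMP before vehicle, and all 4 genes passed in both comparisons. After quantile normalization Ldha was not called (adjusted p = 0.818 and 0.134), nor were Pgk1 (0.0969 and 0.254) and Pkm (0.232 and 0.123). Aldoa was then called under db-cAMP (0.0169) but not under vehicle (0.241). Pkm under db-cAMP was not called without KO db-cAMP array 1 (0.0756) or 2 (0.0716) or WT db-cAMP array 1 (0.0815), and under vehicle not without KO db-cAMP array 1 (0.0555) or 2 (0.0552), KO vehicle array 1 (0.103) or 2 (0.147) or WT vehicle array 2 (0.254). Under vehicle Aldoa was not called without KO vehicle array 1 (0.0584), nor Pgk1 without KO vehicle array 1 (0.0546).

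Pgam1 was lower in KO cells under both treatments, at -0.25 ± 0.06 (adjusted p = 0.0106) and -0.47 ± 0.06 (adjusted p = 0.000427), and Slc2a1 likewise at -0.33 ± 0.09 (adjusted p = 0.0102) and -0.49 ± 0.09 (adjusted p = 0.00269). For Slc2a1 the KO arrays with vehicle gave 2357 and 2275 against 3305 and 3195 in WT cells, with no overlap. Under db-cAMP Slc2a1 was not called without KO db-cAMP array 2 (0.0669) or WT db-cAMP array 2 (0.112), nor Pgam1 without KO db-cAMP array 1 (0.0676) or 2 (0.0658) or WT db-cAMP array 2 (0.058), and Pgam1 was not called there after quantile normalization (0.254). With the mean of its 3 probe sets Slc2a1 was not called under either treatment (adjusted p = 0.74 and 0.154).

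Hif1a stood lower in KO cells, at -1.07 ± 0.08 under db-cAMP (adjusted p = 3.37e-07) and -0.41 ± 0.08 under vehicle (adjusted p = 0.00347). Its hydroxylase gene Egln3 averaged 109 ± 7.82 in KO against 239 ± 2.42 in WT cells with db-cAMP (SD, n = 2 each, difference -1.10 ± 0.25, adjusted p = 0.00433). It did not pass under vehicle (-0.24, adjusted p = 0.649). The interaction of Egln3, at -0.86 ± 0.35, did not pass (adjusted p = 0.151). Under db-cAMP the genes that fell less in KO cells stood higher there, namely Hk2 at 1.39 ± 0.13 (adjusted p = 3.83e-06), Pdk1 at 0.99 ± 0.09 (adjusted p = 3.22e-06) and Rpia at 0.58 ± 0.09 (adjusted p = 0.000226). Under vehicle these 3 genes differed by -0.08, 0.07 and 0.15 and did not pass (adjusted p = 0.807, 0.742 and 0.334). Pfkp stood at -0.61 ± 0.08 under db-cAMP (adjusted p = 5.25e-05) and -0.20 ± 0.08 under vehicle (adjusted p = 0.128), and Pdk3 at -0.46 ± 0.12 (adjusted p = 0.0115) and 0.13 ± 0.12 (adjusted p = 0.585). Pdk3 under db-cAMP was not called without KO db-cAMP array 1 (0.0504) or 2 (0.0727) or WT db-cAMP array 1 (0.0712). Averaged over their probe sets, Egln3 and Hif1a were not called under db-cAMP (adjusted p = 0.428 and 0.0677), nor Hif1a under vehicle (0.0873), where it was not called without an intensity trend either (0.117). These means include dim probe sets, with signals of at most 51.7 for Egln3 and 47.5 for Hif1a.

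Slc16a3 and Tkt passed under db-cAMP and not under vehicle, and the difference between treatments itself did not pass (adjusted p = 0.36 and 0.429). Slc16a3 gave 92 and 43.4 in KO against 176 and 418 in WT cells with db-cAMP (-2.005 ± 0.56, adjusted p = 0.0146), and it was not called without KO db-cAMP array 2 (0.137) or WT db-cAMP array 2 (0.164). Tkt gave 20294 and 33539.6 in KO against 45153 and 45897 in WT cells with db-cAMP (-0.80 ± 0.16, adjusted p = 0.0016), and after quantile normalization it was not called (0.249). Under vehicle Tkt passed without KO db-cAMP array 1 (0.00211) or 2 (0.00211). Under db-cAMP Slc16a1 passed without KO vehicle array 1 (0.0419) or 2 (0.0419), Taldo1 without WT vehicle array 1 (0.0186) or 2 (0.0183) and Pgd without WT db-cAMP array 1 (0.0325). The members Slc2a3, Hk1, Pfkl, Pfkm, Pfkfb3, Aldoc, Eno3, Ldhb, Pdha1, Egln1, Vhl, Pgls and Bpgm did not pass in either genotype comparison.

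**Figure D3:**
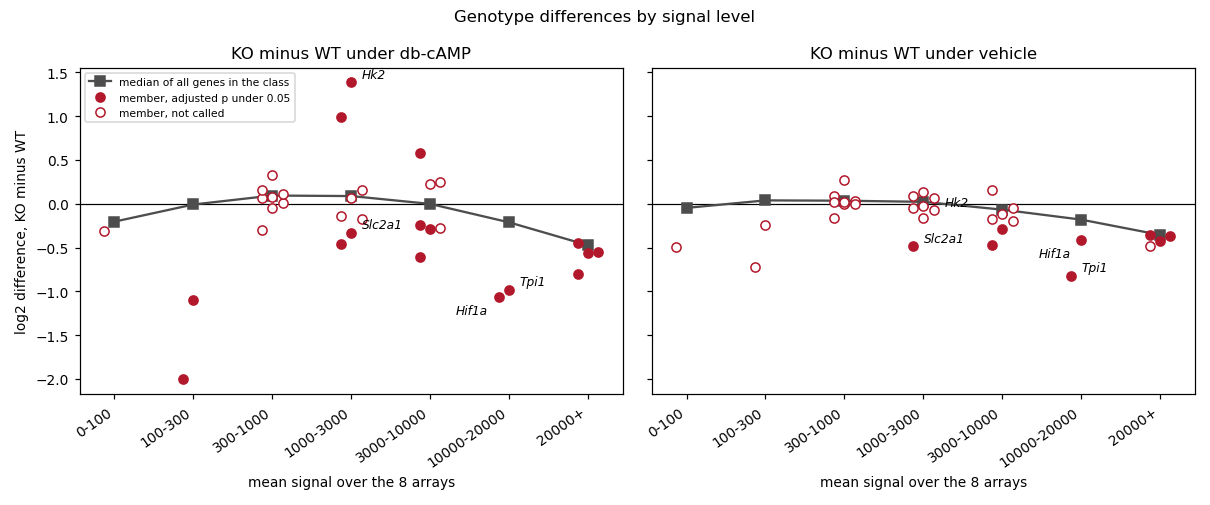
Log2 difference KO minus WT under db-cAMP (left) and under vehicle (right), by class of mean signal over the 8 arrays. Grey squares are the median of all genes in a class and circles are the tested members, filled where the adjusted p is under 0.05. The medians fall to -0.47 and -0.36 in the brightest class, where the 4 members lie between -0.48 and -0.36 under vehicle, and Tpi1 lies below the median of its class on both sides.

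The split of genotype calls moved with the scaling of the arrays. With an equal 75th percentile per array, the split over all genes under db-cAMP was 1371 higher and 2243 lower in KO cells, against 1926 and 1603 without further scaling. Under vehicle it was 402 and 1177, against 612 and 699. That scaling moved the median of all genes under db-cAMP to -0.12. The members' median was then -0.33, a value that holds this shift. Of the members, quantile normalization left 4 higher and 9 lower under db-cAMP and 0 higher and 4 lower under vehicle. Leaving out KO vehicle array 1 left 5 lower under vehicle, against 8.

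Genes that HIF is known to induce, listed apart from the members, moved both ways with db-cAMP. The 24 tested include Pfkfb4, a glycolytic regulator that is also counted among the other glycolysis genes. In KO cells 6 of 24 rose and 1 fell (29.2%, beside 8.38% of all genes), with a median of 0.06. In WT cells 8 of 24 rose and 4 fell (50%, beside 35%), with a median of 0.27. Ndrg1, a stress-responsive gene, rose by 1.16 ± 0.11 in KO and 2.42 ± 0.11 in WT cells. Its signals were 1641 and 1588 in KO cells with db-cAMP against 707 and 733 in KO cells with vehicle, and 2872 and 2862 in WT cells with db-cAMP against 479 and 590.2 in WT cells with vehicle. Mxi1, which encodes an antagonist of MYC, rose by 0.80 ± 0.14 in KO (adjusted p = 0.00265) and 2.02 ± 0.14 in WT cells (adjusted p = 1.11e-07). Kdm3a, a histone demethylase gene, rose by 0.59 ± 0.11 in KO and 1.04 ± 0.11 in WT cells. In WT cells the carbonic anhydrase gene Car12 fell, at -2.76 ± 0.21 (adjusted p = 3.18e-07). Its signals there were 54.7 and 61.0 with db-cAMP, below the medians of those arrays, against 468 and 381 with vehicle. The transferrin receptor gene Tfrc fell, at -0.49 ± 0.07 in KO and -1.70 ± 0.07 in WT cells. Pfkfb4, a relative of Pfkfb3, stood at 0.07 ± 0.35 in KO cells (adjusted p = 0.949) and rose by 2.73 ± 0.35 in WT cells (adjusted p = 3.35e-05), an interaction of -2.66 ± 0.49 (adjusted p = 0.00322). Its signals were 202 and 313 with db-cAMP against 203 and 283 with vehicle in KO cells. In WT cells they were 735 and 549 against 58.3 and 141. With vehicle Pfkfb4 thus stood higher in KO than in WT cells, by 1.34 ± 0.35 (adjusted p = 0.0251). Kdm3a was not called in KO cells without KO db-cAMP array 2 (0.0733). The KO count was 3 without KO db-cAMP array 2 and 4 without KO vehicle array 2, against 7. Averaged over their probe sets, Mxi1 and Tfrc were not called in KO cells (0.137 and 0.11), nor Car12 in WT cells (0.0792).

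Among HIF partners and oxygen-sensing genes, the KO comparison found that 2 of 11 rose and 0 fell (18.2%, beside 8.38% of all genes), and the WT comparison that 4 of 11 rose and 0 fell (36.4%, near the 35% of all genes). Epas1, which encodes HIF-2α, gave 134 and 223 in KO cells with db-cAMP against 78.0 and 42.2 in KO cells with vehicle, and 379 and 367 in WT cells with db-cAMP against 29.4 and 20.0 in WT cells with vehicle. It rose by 1.498 ± 0.41 in KO (adjusted p = 0.0398) and 3.66 ± 0.41 in WT cells (adjusted p = 9.84e-06), where the vehicle signals lay below the array medians. Egln2, the third prolyl hydroxylase gene, rose by 0.55 ± 0.12 in WT cells (adjusted p = 0.00241), and Siah1a, a ubiquitin ligase gene, by 0.66 ± 0.16 in KO and 0.63 ± 0.16 in WT cells. In KO cells Egln2 stood at 0.13 ± 0.12 (adjusted p = 0.638), and its interaction did not pass (adjusted p = 0.137). Hif3a, a further HIF subunit gene, stood at -0.66 ± 0.45 in KO cells (adjusted p = 0.475) and rose by 2.15 ± 0.45 in WT cells (adjusted p = 0.00204), with an interaction of -2.81 ± 0.64 (adjusted p = 0.0115). Its signals were 132 and 307 with db-cAMP against 30.2 and 55.7 with vehicle in WT cells, and the vehicle signals lay below the medians of those arrays. In KO cells they were 83.5 and 163 with db-cAMP against 177 and 199 with vehicle. With vehicle Hif3a thus stood higher in KO than in WT cells, by 2.05 ± 0.45 (adjusted p = 0.0107). The list's median was 0.13 in KO and 0.17 in WT cells. Arnt, the partner subunit of HIF-1α, did not pass in either genotype (adjusted p = 0.452 and 0.534). The KO rises did not withstand the loss of single arrays. Epas1 was not called there without KO db-cAMP array 1 (0.0771) or 2 (0.357), KO vehicle array 2 (0.279) or WT db-cAMP array 1 (0.0583) or 2 (0.0566). Siah1a was not called in KO cells without KO db-cAMP array 1 (0.164) or 2 (0.0872) or KO vehicle array 1 (0.143) or 2 (0.094), nor in WT cells without WT db-cAMP array 1 (0.103) or WT vehicle array 2 (0.0942). The interaction of Hif3a was not called without KO db-cAMP array 1 (0.0605), KO vehicle array 2 (0.0605) or WT db-cAMP array 2 (0.0509).

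Among upstream growth regulators 3 of 17 rose and 3 fell in the KO comparison (35.3%, beside 8.38% of all genes), while 3 of 17 rose and 7 fell in the WT comparison (58.8%, beside 35%). Myc gave 5798 and 5756 in KO cells with db-cAMP against 8257 and 8370.0 in KO cells with vehicle, and 2448 and 2587 in WT cells with db-cAMP against 9547 and 10396 in WT cells with vehicle, and so it fell, at -0.52 ± 0.07 in KO (adjusted p = 0.00042) and -1.98 ± 0.07 in WT cells (adjusted p = 3.55e-10), with an interaction of 1.46 ± 0.10 (adjusted p = 3.64e-06). Txnip, an inhibitor of glucose uptake, rose by 0.76 ± 0.16 in KO and 0.96 ± 0.16 in WT cells. Foxo1, a quiescence factor that AKT inhibits, rose by 0.74 ± 0.10 in KO and 1.01 ± 0.10 in WT cells, and Rictor, a subunit of an mTOR complex, by 0.62 ± 0.14 and 0.88 ± 0.14. Mlx, a partner of glucose-sensing MondoA, fell, at -0.55 ± 0.15 in KO (adjusted p = 0.0437) and -0.67 ± 0.15 in WT cells (adjusted p = 0.00361). Irf4, a T cell activation factor, fell less in KO cells, with an interaction of 0.37 ± 0.10 (adjusted p = 0.0267). Myc and Foxo1 passed in each fit that left out 1 array. In KO cells Mlx was not called without KO db-cAMP array 1 (0.314) or 2 (0.0719), KO vehicle array 1 (0.104) or 2 (0.264) or WT vehicle array 1 (0.05), Txnip without KO db-cAMP array 1 (0.0654) or 2 (0.0745) or KO vehicle array 2 (0.0776), and Rictor without KO db-cAMP array 2 (0.162) or KO vehicle array 2 (0.128). The interaction of Irf4 was not called without KO db-cAMP array 1 (0.0641) or 2 (0.119), KO vehicle array 1 (0.0929), WT db-cAMP array 1 (0.0594) or WT vehicle array 2 (0.0846). The KO count was 3 without KO db-cAMP array 1, and 2 without KO db-cAMP array 2 or KO vehicle array 2, against 6. Averaged over probe sets, Foxo1 was not called in KO cells (0.135), nor Txnip in KO (0.192) and WT cells (0.089). The list's median was 0.01 in KO and -0.13 in WT cells.

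Other glycolysis and pyruvate genes numbered 28 among those tested. In KO cells 0 of 28 rose and 1 fell (3.57%, beside 8.38% of all genes), and in WT cells 4 of 28 rose and 3 fell (25%, beside 35%), both below the share over all genes. Pgam5, a mitochondrial phosphatase gene of the phosphoglycerate mutase family, fell, at -0.41 ± 0.10 in KO and -0.895 ± 0.10 in WT cells. In WT cells Hk3, a further hexokinase gene, stood at 128 and 104 with db-cAMP against 23.8 and 14.4 with vehicle (2.33 ± 0.69, adjusted p = 0.0182), and Slc2a8, which encodes GLUT8, at 29.8 and 51.6 against 146 and 187 (-1.93 ± 0.34, adjusted p = 0.000521). The array medians were 56.2 to 70.5. Galm, a sugar epimerase gene, fell, at -1.24 ± 0.21 in WT cells (adjusted p = 0.00045). In KO cells it stood at -0.70 ± 0.21 (adjusted p = 0.0643). Its interaction and that of Hk3 did not pass (adjusted p = 0.314 and 0.324). The interactions of Slc2a8 (2.21 ± 0.48, adjusted p = 0.00892) and Pgam5 (0.49 ± 0.14, adjusted p = 0.0415) passed, as did that of Mpc1, a subunit gene of the mitochondrial pyruvate carrier (-0.42 ± 0.11, adjusted p = 0.0264). These calls also rested on single arrays. In KO cells Pgam5 was not called without KO db-cAMP array 1 (0.0936) or 2 (0.172) or KO vehicle array 1 (0.0903) or 2 (0.14). In WT cells Hk3 was not called without WT db-cAMP array 1 (0.0865) or 2 (0.0531) or WT vehicle array 2 (0.071), and Galm was not called with the mean of its probe sets (0.173). The interaction of Slc2a8 was not called without KO db-cAMP array 2 (0.0525), that of Mpc1 not without KO db-cAMP array 2 (0.124), KO vehicle array 1 (0.0528) or 2 (0.0852), WT db-cAMP array 1 (0.0767) or WT vehicle array 2 (0.099), and that of Pgam5 not without KO db-cAMP array 1 (0.146) or 2 (0.0875), KO vehicle array 1 (0.103) or 2 (0.106), WT db-cAMP array 2 (0.139) or WT vehicle array 1 (0.0599) or 2 (0.128).

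For other pentose phosphate and NADPH genes, 0 of 9 rose and 2 fell in the KO comparison (22.2%, beside 8.38% of all genes), while 1 of 9 rose and 4 fell in the WT comparison (55.6%, beside 35%). Txnrd1, the cytosolic thioredoxin reductase that uses NADPH, fell, at -0.40 ± 0.10 in KO (adjusted p = 0.0204) and -0.83 ± 0.10 in WT cells (adjusted p = 1.53e-05). H6pd, a glucose-6-phosphate dehydrogenase of the endoplasmic reticulum, fell, at -1.46 ± 0.39 in WT cells (adjusted p = 0.0104), and Prps2, which makes the nucleotide precursor PRPP, at -0.38 ± 0.08 (adjusted p = 0.00225). Idh1, the cytosolic isocitrate dehydrogenase that makes NADPH, rose by 1.36 ± 0.41 in WT cells (adjusted p = 0.0206). In KO cells Idh1 stood at 1.12 ± 0.41 (adjusted p = 0.131). Rpe, the epimerase that acts beside Rpia, fell, at -0.35 ± 0.10 in KO cells (adjusted p = 0.0488). The interactions of H6pd, Prps2, Idh1 and Rpe did not pass (adjusted p = 0.137, 0.139, 0.863 and 0.133). In KO cells Txnrd1 was not called without KO db-cAMP array 1 (0.0694) or 2 (0.173) or KO vehicle array 2 (0.212), nor Rpe without KO db-cAMP array 1 (0.118) or 2 (0.3), KO vehicle array 1 (0.0836) or 2 (0.269) or WT vehicle array 1 (0.0594) or 2 (0.0594). In WT cells H6pd was not called without WT db-cAMP array 2 (0.0817) or WT vehicle array 1 (0.0837), nor Idh1 without WT db-cAMP array 1 (0.123) or WT vehicle array 1 (0.186). Averaged over its probe sets, Txnrd1 was not called in KO (0.631) or WT cells (0.256). The list medians were -0.09 in KO and -0.22 in WT cells, and those of the other glycolysis genes were -0.06 and 0.22. Of the other glycolysis genes 4, and of the HIF target genes 3, were not analysed here, and further genes did not pass the filter.

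Between genotypes, 3 of the 24 HIF target genes were higher and 8 lower in KO cells under db-cAMP, and 3 higher and 2 lower under vehicle. Of 28 other glycolysis and pyruvate genes 4 were higher and 4 lower under db-cAMP, and 2 and 0 under vehicle. Of 17 growth regulators 7 were higher and 0 lower under db-cAMP, and 0 and 2 under vehicle. These counts stand beside 29.2% and 10.8% of all genes called under db-cAMP and vehicle, and the lists were chosen with results of these data known.

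**Figure D4:**
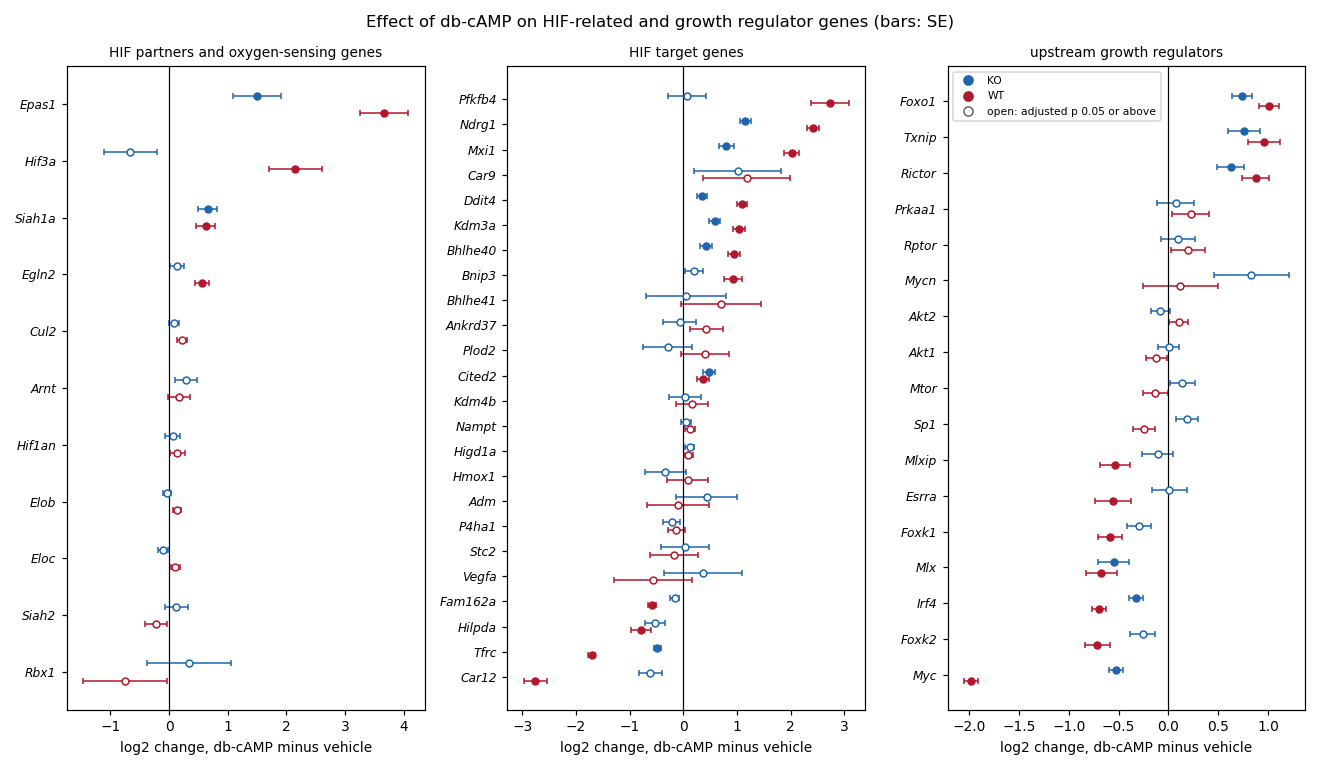
Log2 change with db-cAMP for 3 gene lists, in KO cells (blue, upper) and WT cells (red, lower), ordered by the WT change. Bars are standard errors and filled symbols passed an adjusted p of 0.05. Epas1, Ndrg1 and Mxi1 rise and Myc and Tfrc fall in both genotypes, and the WT points lie farther from 0.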

How the data were processed

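The authors deposited 1 linear intensity per probe set and array, computed with MAS5 per the submitters' processing notes (version not given in the sources used here). The middle 96 percent of values averages 500 on each array, so they had been scaled array by array before deposit, and a shift in the mRNA content of a whole cell leaves no trace in them. Detection calls were left aside. Precision is limited by the number of arrays.

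Of 45101 probe sets, 64 were controls, 34945 had 1 gene symbol, 932 several and 9160 none in the platform annotation. The Entrez identifiers of 34741 were found in the RefSeq table of GRCm38.p6, and 0 symbols changed. Each gene was read from its brightest probe set by mean log2 value over the 8 arrays. Values were taken as log2(signal + 5.48), the offset being the 10th percentile of all values, so changes of dim genes are understated, and levels of different probe sets are not comparable. Genes above their array's median on at least 2 arrays were kept, 12091 in all, and 6102 were set aside. Differences were tested with limma 3.58.1 in R 4.3.3 (lmFit with 1 term per group over 8 arrays, eBayes with an intensity trend, 4 residual degrees of freedom), with Benjamini-Hochberg adjustment. On simulated data the fit found 49.2% of 1.5-fold, 60.2% of 2-fold and 80.8% of 4-fold changes, and 5.15% of its calls were false. Those data had independent normal errors and 200 genes changed per run, so they do not show how it handles wider changes or array-wide differences. Python 3.11.15 and matplotlib 3.10.9 drew the figures.

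Groups and replicate numbers came from the sample titles. Comparisons were db-cAMP against vehicle in each genotype, KO against WT with each treatment, and the interaction between both. Named genes were all members, with values per array for those changed by at least 0.5 (log2) in a genotype or with a called interaction and for Hif1a, Slc2a1, Hk2, Gapdh and Ldha, and up to 4 changed genes of each of 5 further lists. Some genes were also given in other comparisons. The members and lists were chosen with earlier results of these data known. Alternatives were other offsets, no filter, other ways to pick probe sets, no trend, quantile or 75th-percentile scaling, the compared groups alone, a replicate block, and each array left out.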

Additional observations from a re-analysis of the deposited data

Results flagged for a closer look

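The change with db-cAMP differed between KO and WT cells, by the test of the difference itself, for 6 members. The KO change minus the WT change was 1.46 ± 0.18 on the log2 scale for Hk2, with -0.60 in KO and -2.07 in WT cells. For Pdk1 it was 0.92 ± 0.13, with -0.39 in KO and -1.31 in WT cells. Hif1a had -0.66 ± 0.11, with 0.64 and 1.29. Rpia had 0.43 ± 0.12, with -0.39 and -0.81. Pdk3 had -0.60 ± 0.17, with 0.15 and 0.75. Pfkp had -0.41 ± 0.11, with -0.21 and 0.20, and was the member among these whose changes had opposite signs. Over all genes, 11.8% passed the same test, a share that includes dim genes, which were seldom called.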

How the results depend on the processing

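Each value of a member or named list gene was recomputed under each alternative. Of the values called as reported, 2049 kept direction and call, 341 lost the call and 2 changed sign. The sign changes came with the mean of probe sets, for Slc2a3 in WT cells (0.27) and the interaction of Hif1a (0.065). Both means included dim probe sets, with signals below the array medians. Without an intensity trend, members called were 0 for db-cAMP in KO, 9 in WT, 10 and 1 for genotype under db-cAMP and vehicle and 2 for the interaction, against 8, 14, 16, 8 and 6, and genes called were 188 for db-cAMP in KO, 251 for genotype under vehicle and 261 for the interaction. Without the trend limma called 0 members in KO cells, and 9 had an unadjusted p under 0.05. With the mean of probe sets, members were 4 in KO, 9 in WT and 1 for the interaction, and genes 497 in KO, 794 for genotype under vehicle and 709 for the interaction. Testing every probe set called 6890 for db-cAMP in WT, 6431 and 2733 for genotype under db-cAMP and vehicle, from more features tested. Quantile normalization left 4 members for genotype under vehicle. The cause of these differences was not tested. Leaving out 1 array gave 2 to 8 members for db-cAMP in KO, 10 to 14 in WT, 11 to 17 and 5 to 8 for genotype under db-cAMP and vehicle and 3 to 6 for the interaction. For genes the ranges were 446 to 1089, 3451 to 4129, 2438 to 3580, 617 to 1391 and 891 to 1336 in that order. A group with 1 array left was assumed to vary like the others.

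Replicate numbers did not pair the arrays: the correlations of replicate 1 minus replicate 2 between groups lay between -0.02 and 0.02 across genes. With the replicate block 8 and 14 members passed for db-cAMP in KO and WT, 18 and 8 for genotype and 4 for the interaction, and 935, 4184, 3485, 1250 and 1373 genes.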

Other observations

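Some values were noticed after the tests and were chosen for their size. Gpd2, which encodes the mitochondrial glycerol-3-phosphate dehydrogenase that passes electrons from cytosolic NADH to the respiratory chain, gave 2379.7 and 2305 in KO against 868 and 1019 in WT cells with db-cAMP. With vehicle it gave 2086 and 1869 in KO against 799 and 803 in WT cells. It was higher in KO cells by 1.31 ± 0.10 under db-cAMP (adjusted p = 9.57e-07) and 1.30 ± 0.10 under vehicle (adjusted p = 3.85e-06). With the mean of its probe sets the difference under vehicle was not called (0.559). Its interaction was 0.01 ± 0.15 (adjusted p = 0.971).

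The probe sets of some members gave different answers. The dimmer of the 2 Pdha1 probe sets gave 1459 and 1505 in KO against 2791 and 2901 in WT cells with db-cAMP, and 1966 and 2257 in KO against 2537 and 2763 in WT cells with vehicle, whereas the brighter, used above, gave 2708 and 2627 against 3015 and 2852 and 2879.8 and 3004 against 3166 and 2852. For Tkt the second probe set gave 8532 and 8235 in KO against 9468 and 8886 in WT cells with db-cAMP, log2 -0.13, where the probe set used above gave -0.80. The probe set of Ldhb used above gave 0.06 for KO minus WT under db-cAMP, and its others gave -0.49, -0.31 and -0.37. For db-cAMP minus vehicle in WT cells it gave 0.10, and the others gave 0.49, 0.34 and 0.25.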
